A study of Arabidopsis thaliana with 16 samples.

Results

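A set of 10 NAC transcription factor genes known from leaf senescence was followed across 8 groups of Arabidopsis thaliana RNA sequencing libraries. They are 10 of the 32833 loci in the deposited table and were chosen by locus: NAP (AT1G69490), ORE1 (AT5G39610), ORS1 (AT3G29035), NAC019 (AT1G52890), NAC055 (AT3G15500), RD26 (AT4G27410), JUB1 (AT2G43000), ATAF1 (AT1G01720), NAC016 (AT1G34180) and VNI2 (AT5G13180). Petals came from 35S:CO plants, which overexpress the flowering regulator CONSTANS (CO) from the 35S promoter, from co-10, a CO null mutant, and from the wild type Col-0, at ZT16 and at ZT4 (hours after lights on). Whole seedlings, 10 days old and all collected at ZT16, came from 35S:CO and Col-0. All plants grew under 16 h of light and 8 h of dark, each group holds 2 biological replicates, and values are FPKM, which are scaled to transcript length and library size. The age of the flowers is not stated in the labels, and petals are bulk tissue, so a change in the number of cells of a kind and in the RNA of each cell cannot be told apart.

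NAC proteins are plant transcription factors that share a DNA-binding domain near the amino terminus. In leaves, NAP, ORE1 and ORS1 promote senescence, ORE1 partly through ethylene signalling and the release of its transcript from miR164, while NAC019, NAC055 and RD26 respond to jasmonate, abscisic acid and drought. ATAF1 and NAC016 also promote leaf senescence, and JUB1 and VNI2 delay it. NAP was first described as a target of the petal and stamen identity genes AP3 and PI, from which its name (NAC-like, activated by AP3/PI) derives.

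The sequences that bear on the pattern of these genes are shown from the RefSeq copy of the build TAIR10.1. All 10 loci were found there. The first set compares the small RNA miR164 with ORE1 and its close relative ORS1, since ORE1 is its known target among the members. In the microRNA the capitals mark the seed (bases 2 to 8), which miR164a, miR164b-5p and miR164c-5p share. In the transcript stretches the capitals mark bases that pair with miR164a.
miR164a (chr2:19520770-19520790, plus strand): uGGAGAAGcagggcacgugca
miR164c-5p (chr5:9852684-9852704, plus strand): uGGAGAAGcagggcacgugcg
ORE1, exon 3, coding (chr5:15858797-15858817, minus strand): ctCACGTGaCCTGCTTCTCCg
ORS1, exon 3, coding (chr3:11034693-11034713, plus strand): ctCACGTtaCCTaCTTCTCCg
NAC1, exon 3, coding (chr1:20947142-20947162, minus strand): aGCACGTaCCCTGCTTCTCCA
The ORE1 stretch paired with miR164a at 17 of 21 bases and the best ORS1 stretch at 15 of 21. NAC1, a NAC gene that is no member and a known miR164 target, paired at 19 of 21. A stretch with 4 or fewer mismatches was found in 13 of 27440 genes and with 6 or fewer in 410 of them, and the other 8 members had 8 or 9 mismatches at best. The coding sequences of ORE1 and ORS1 were 81.3% identical over 825 aligned bases, and those of NAC019 and NAC055 80.4% over 927. No stretch of 50 bases in the transcript of any member occurred in another gene.

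The second set shows 300 bases before the annotated start of 3 members: NAP and NAC019, which had the highest medians over the 12 petal libraries (376 and 244 FPKM), and ORE1, which had the largest difference with time in the mean of the genotypes (1.79). Capitals mark CACGTG, the G-box bound by bHLH and bZIP factors, and its core ACGTG, searched on both strands, so that each CACGTG also holds ACGTG on both strands.
NAP (chr1:26121780-26122079, plus strand): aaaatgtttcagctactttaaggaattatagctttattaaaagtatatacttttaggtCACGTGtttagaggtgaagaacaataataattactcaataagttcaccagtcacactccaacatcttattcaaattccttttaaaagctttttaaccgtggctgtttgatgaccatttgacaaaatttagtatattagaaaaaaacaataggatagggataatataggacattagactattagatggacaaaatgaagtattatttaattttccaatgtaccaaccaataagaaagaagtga
NAC019 (chr1:19698483-19698782, minus strand): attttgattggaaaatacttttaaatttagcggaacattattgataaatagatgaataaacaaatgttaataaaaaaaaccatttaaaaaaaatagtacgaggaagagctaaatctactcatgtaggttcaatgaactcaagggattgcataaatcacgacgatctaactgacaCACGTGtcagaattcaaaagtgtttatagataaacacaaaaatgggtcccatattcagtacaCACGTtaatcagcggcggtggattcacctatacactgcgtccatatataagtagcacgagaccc
ORE1 (chr5:15859912-15860211, minus strand): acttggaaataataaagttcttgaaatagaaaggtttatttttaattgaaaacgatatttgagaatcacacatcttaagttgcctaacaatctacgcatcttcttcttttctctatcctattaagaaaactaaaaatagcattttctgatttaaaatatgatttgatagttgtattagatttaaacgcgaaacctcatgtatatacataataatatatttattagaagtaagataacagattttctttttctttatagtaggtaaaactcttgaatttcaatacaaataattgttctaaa
CACGTG began 242 bases before the start of NAP and 126 before that of NAC019, so 2 of 10 members had it, against 7.09% of 27443 genes. ACGTG stood in 4 of 10 members, NAP, NAC019, RD26 and VNI2, against 25.6% of genes. The motifs TGTGNNATG (4.03% of genes), the same with 1 more free base in the middle (4.61%), and AAAATATCT (2.79%), the last an evening-phased clock element, were in none of the 10 windows. These matches describe the letters and are not binding sites shown here.

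The labels were checked on CO and on marker genes. CO stood at 414 to 625 FPKM in 35S:CO petals, against 0.0256 to 0.260 FPKM in co-10 petals and 0.0376 to 0.703 FPKM in Col-0 petals, and at 315 and 297 FPKM in 35S:CO seedlings, against 1.91 and 2.10 FPKM in Col-0 seedlings. The CO levels of co-10 and Col-0 petals overlapped and limma called no difference between them, so they cannot check the co-10 label. The 4 petal markers AP3, PI, SEP3 and AP1 summed to 869 to 2221 FPKM in petals, against 6.07 to 11.5 FPKM in seedlings. Depth, estimated from the steps between low values, was 5220000 to 22010000 reads in petals, lowest in co-10 ZT4 replicate 2 (5220000) and Col-0 ZT4 replicate 2 (7670000), against 56010000 to 63340000 in seedlings. The estimate for co-10 ZT4 replicate 2 is doubtful, since its commonest low value came out at 7 reads. That for 35S:CO ZT16 replicate 1 (17850000) is doubtful too, since there it came out at 3 reads. Ribosomal RNA held 3.82% to 48.8% of the summed FPKM in petals and 0.108% to 0.610% in seedlings. Replicates correlated at 0.904 to 0.975 in petals and 0.985 and 0.991 in seedlings across genes on the log2 scale, and none were copies of each other.

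Petals and seedlings differed in the levels of most of the 10 genes. Summed over all 10, petals held 706 to 2246 FPKM, against 86.7 to 146 FPKM in seedlings. NAP was the most abundant member in all 6 ZT16 petal libraries and in 3 of 6 at ZT4, with 31.7% to 51.4% of the sum at ZT16, and NAC019 led in the other 3 ZT4 libraries. In seedlings VNI2 alone held 59.2% to 62.3% of the sum in all 4 libraries.

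**Figure D1:**
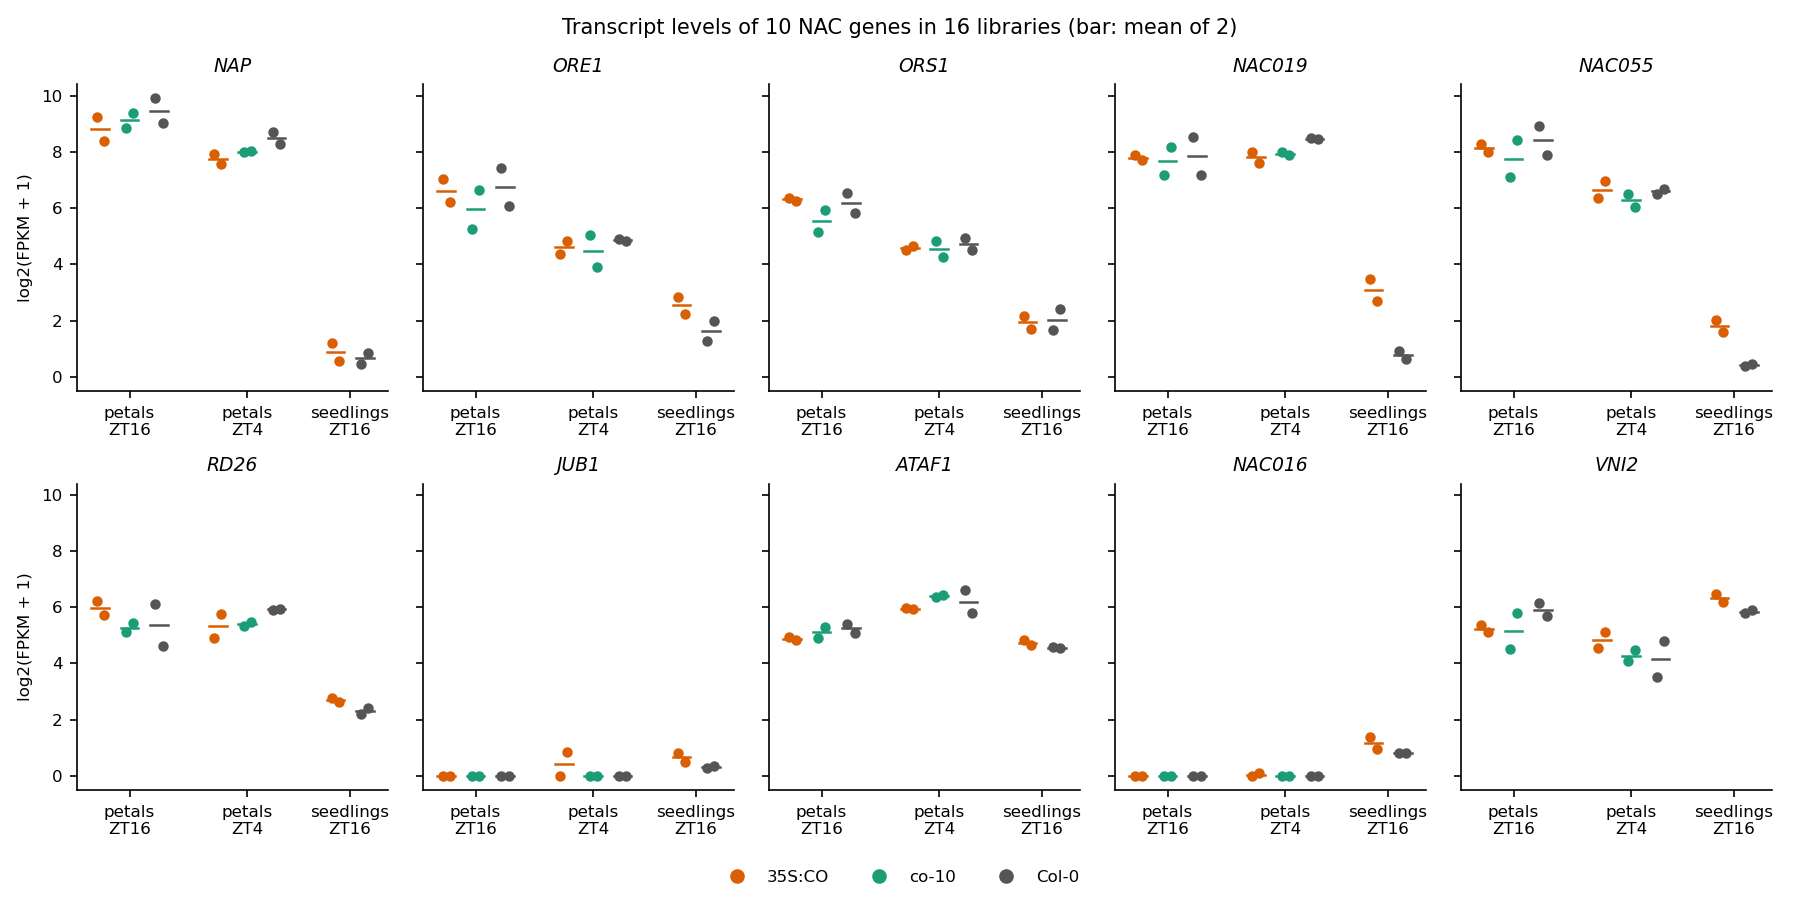
Levels of the 10 genes as log2(FPKM + 1) in every library, by genotype (colour), with petals at ZT16, petals at ZT4 and seedlings at ZT16 from left to right; each point is 1 library and each bar the mean of 2. NAP, ORE1, ORS1, NAC019, NAC055 and RD26 were higher in all 12 petal libraries than in all 4 seedling libraries, and JUB1 and NAC016 were at 0 in 11 of 12 petal libraries.

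At ZT16, NAP stood at 609 and 336 FPKM in 35S:CO petals, against 1.30 and 0.504 FPKM in 35S:CO seedlings, and at 952 and 521 FPKM in Col-0 petals, against 0.391 and 0.817 FPKM in Col-0 seedlings. Among all loci it ranked between 64 and 368 in petals. ORE1, which drives age-dependent leaf senescence, stood at 129 and 72.7 FPKM in 35S:CO petals, against 6.19 and 3.72 FPKM in 35S:CO seedlings, and at 171 and 66.7 FPKM in Col-0 petals, against 1.42 and 3.01 FPKM in Col-0 seedlings. ORS1 had 81.3 and 75.9 FPKM in 35S:CO petals, against 3.52 and 2.29 FPKM in 35S:CO seedlings, and 90.8 and 55.6 FPKM in Col-0 petals, against 2.20 and 4.29 FPKM in Col-0 seedlings. NAP, ORE1 and ORS1 were higher in every petal library than in any seedling library, as were NAC019, NAC055 and RD26. Such separation, over all 12 petal and 4 seedling libraries, held for 6 of 8 members tested, against 12% of all genes tested, and 0 of 8 were lower in all 12, against 41.7%. The filter on low values bears on these counts: NAP passed it through petals alone, and NAC016, which was lower in all 12 petal libraries, did not pass and is not among the 8. Like NAC016, ATAF1 promotes leaf senescence but was not higher in all petal libraries. Its lowest petal level was 27.22 FPKM and its highest seedling level 27.25 FPKM.

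In the limma fit across all genes, 7 of 8 members tested were higher in Col-0 petals than in Col-0 seedlings, where 64.5% of all genes were called in either direction and 18.9% as higher in petals. NAP passed the filter on low values only through petals, so its part in the counts of this paragraph is a description. JUB1 and NAC016 did not pass the filter and were lower in both Col-0 petal libraries than in both Col-0 seedling libraries. Differences are on the log2(FPKM + 1) scale, ± SE, and the call is an adjusted p under 0.05. The difference was 8.79 ± 0.38 for NAP, 7.98 ± 0.44 for NAC055, 7.07 ± 0.44 for NAC019, 5.12 ± 0.58 for ORE1, 4.13 ± 0.36 for ORS1 and 3.05 ± 0.42 for RD26. ATAF1 was higher by 0.69 ± 0.26 (adjusted p = 0.0366), a call lost without either seedling library or petal replicate 1, with an adjusted p up to 0.186. VNI2 differed by 0.07 ± 0.46 (95% interval -0.95 to 1.08). Both Col-0 petal libraries at ZT16 were above both Col-0 seedling libraries for 7 of 8 members and below them for 0 of 8, against 27.4% and 58.7% of all genes. The same difference over all genes had a median of -0.74, or -0.07 after quantile normalization, and these 6 large differences and that of ATAF1 kept their direction and call under it.

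In 35S:CO, 6 of 8 members were higher in petals, where 61.3% of all genes were called and 18.2% as higher. The part of NAP in these counts is a description too, since it passed the filter only through petals. NAP (7.93 ± 0.38), NAC055 (6.33 ± 0.44), NAC019 (4.72 ± 0.44), ORS1 (4.37 ± 0.36), ORE1 (4.07 ± 0.58) and RD26 (3.25 ± 0.42) rose. VNI2 had a difference of -1.07 ± 0.46 (adjusted p = 0.0634) and ATAF1 of 0.15 ± 0.26. Both petal libraries were above both seedling libraries for 6 of 8 members, against 29.9% of all genes, and below them for VNI2, 1 of 8, against 59.5%, while JUB1 and NAC016, which were not tested, were lower in both petal libraries. Beside these differences, the 5 green tissue markers summed to 505 to 4464 FPKM in petals, against 12830 to 15740 FPKM in seedlings. The 5 pollen and anther markers summed to 503 to 3163 FPKM in petals, against 13.5 to 35.2 FPKM in seedlings, all of it in petals from VGD1 and TUA1 but for 0.378 FPKM of DUO1 in 1 library. MS2 and A9, which mark the tapetum, were listed at 0 in all 12 petal libraries. AG, the stamen and carpel identity gene, had 0 to 6.55 FPKM in petals, against 0.0733 to 0.183 FPKM in seedlings. The 6 carpel, ovule and seed markers summed to 0 to 13.7 FPKM in petals, against 3.21 to 3.89 FPKM in seedlings, and the 4 root markers to 0 to 4.56 FPKM, against 45.6 to 87.9 FPKM. The part of these other tissues in the differences was not tested.

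JUB1 and NAC016 were near absent from petals. JUB1, a repressor of senescence, was listed at 0 in 11 of 12 petal libraries and at 0.819 FPKM in 35S:CO ZT4 replicate 2, against 0.233 to 0.762 FPKM in the 4 seedling libraries. NAC016, a promoter of chlorophyll loss, was listed at 0 in the same 11 libraries and at 0.0684 FPKM in the other, against 0.748 to 1.61 FPKM in seedlings. Both fell under the filter of 1 FPKM in at least 2 libraries in every fit and were not tested. Petal libraries list 11490 to 18240 loci at 0, against 7975 to 8361 in seedlings, and the part of depth in these values was not tested.

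Time of day was the condition with which the petal levels of most members moved. Averaged over the 3 genotypes, 5 of 8 members tested were higher at ZT16 than at ZT4 and 1 was lower, where 33.5% of all genes were called, 19.9% as higher and 13.7% as lower. ORE1, ORS1 and NAC055 were higher in each of the 6 ZT16 libraries than in any of the 6 ZT4 libraries, which held for 10.9% of all genes. ATAF1 was lower in all 6, which held for 6.02%. NAP and VNI2 rose in the mean, and NAC019 and RD26 did not pass the test.

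ORE1 stood at 129 and 72.7 FPKM in ZT16 petals of 35S:CO, against 19.9 and 27.7 FPKM at ZT4. In co-10 petals it stood at 37.6 and 98.9 FPKM at ZT16, against 31.8 and 13.9 FPKM at ZT4. Col-0 petals had 171 and 66.7 FPKM at ZT16, against 29.0 and 27.3 FPKM at ZT4. The lowest ZT16 value, in co-10 replicate 1, lay close above the highest ZT4 value, also in co-10. Over the 3 genotypes ORE1 rose by 1.79 ± 0.33 (limma, adjusted p = 0.00177). ORS1 had 81.3 and 75.9 FPKM in ZT16 petals of 35S:CO, against 21.9 and 24.4 FPKM at ZT4. It had 34.5 and 60.3 FPKM at ZT16 in co-10 petals, against 27.4 and 18.3 FPKM at ZT4, and 90.8 and 55.6 FPKM at ZT16 in Col-0 petals, against 29.4 and 22.0 FPKM at ZT4. In each genotype both ZT16 levels of ORS1 lay above both ZT4 levels, with the smallest gap in co-10, and its mean rise was 1.39 ± 0.21 (adjusted p = 4.67e-04).

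NAC055, a close relative of NAC019, stood at 309.8 and 255 FPKM in ZT16 petals of 35S:CO, against 80.7 and 123 FPKM at ZT4. Its levels were 135 and 338 FPKM at ZT16 in co-10 petals, against 90.5 and 64.3 FPKM at ZT4, and 483 and 236 FPKM at ZT16 in Col-0 petals, against 90.1 and 103 FPKM at ZT4. It rose by 1.59 ± 0.27 over the genotypes (adjusted p = 0.00115). NAC019, in contrast to this close relative, had 235 and 207 FPKM in ZT16 petals of 35S:CO, against 255 and 194 FPKM at ZT4. In co-10 petals it had 144 and 286 FPKM at ZT16, against 251 and 237 FPKM at ZT4, and in Col-0 petals 371 and 143 FPKM at ZT16, against 355 and 350.3 FPKM at ZT4. The times overlapped in every genotype for NAC019, with a mean difference of -0.29 ± 0.26 (adjusted p = 0.408, 95% interval -0.86 to 0.27), an interval that lies below that of NAC055, which was 0.99 to 2.18. The difference between both genes was not tested as such.

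RD26, named for its response to drying, had 73.3 and 51.3 FPKM in ZT16 petals of 35S:CO, against 29.3 and 52.9 FPKM at ZT4, and 67.4 and 23.8 FPKM at ZT16 in Col-0 petals, against 58.8 and 60.5 FPKM at ZT4. In co-10 petals RD26 had 33.3 and 42.2 FPKM at ZT16, against 39.0 and 42.9 FPKM at ZT4. Its mean difference was -0.02 ± 0.26 (adjusted p = 0.963, 95% interval -0.59 to 0.55). The 3 related stress-responsive genes thus gave 1 rise and 2 differences that did not pass the test.

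NAP had 609 and 336 FPKM in ZT16 petals of 35S:CO, against 239 and 189 FPKM at ZT4. It had 460.0 and 673 FPKM at ZT16 in co-10 petals, against 253 and 260.4 FPKM at ZT4, and 952 and 521 FPKM at ZT16 in Col-0 petals, against 416 and 307 FPKM at ZT4. Both ZT16 libraries were above both ZT4 libraries in each of the 3 genotypes, and the mean rise was 1.06 ± 0.23 (adjusted p = 0.00505). Across genotypes, however, the lowest ZT16 value, in 35S:CO, was under the highest ZT4 value, in Col-0.

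ATAF1 ran the other way. It had 30.0 and 27.2 FPKM in ZT16 petals of 35S:CO, against 61.3 and 60.4 FPKM at ZT4. Levels in co-10 petals were 29.0 and 38.3 FPKM at ZT16, against 81.2 and 85.6 FPKM at ZT4, and those in Col-0 petals 41.6 and 32.8 FPKM at ZT16, against 96.6 and 54.1 FPKM at ZT4. Its mean difference was -1.10 ± 0.18 (adjusted p = 8.94e-04). Its ZT16 petal levels of 27.2 to 41.6 FPKM stood beside 22.2 to 27.2 FPKM in seedlings collected at the same hour. VNI2, which delays leaf senescence and activates cold and drought genes, had 40.6 and 33.3 FPKM in ZT16 petals of 35S:CO, against 22.6 and 33.6 FPKM at ZT4. It had 21.6 and 54.0 FPKM at ZT16 in co-10 petals, against 15.9 and 21.3 FPKM at ZT4, and 69.3 and 49.96 FPKM at ZT16 in Col-0 petals, against 10.3 and 26.7 FPKM at ZT4. It rose by 1.01 ± 0.28 in the mean (adjusted p = 0.0188). Both directions thus occurred within the set.

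**Figure D2:**
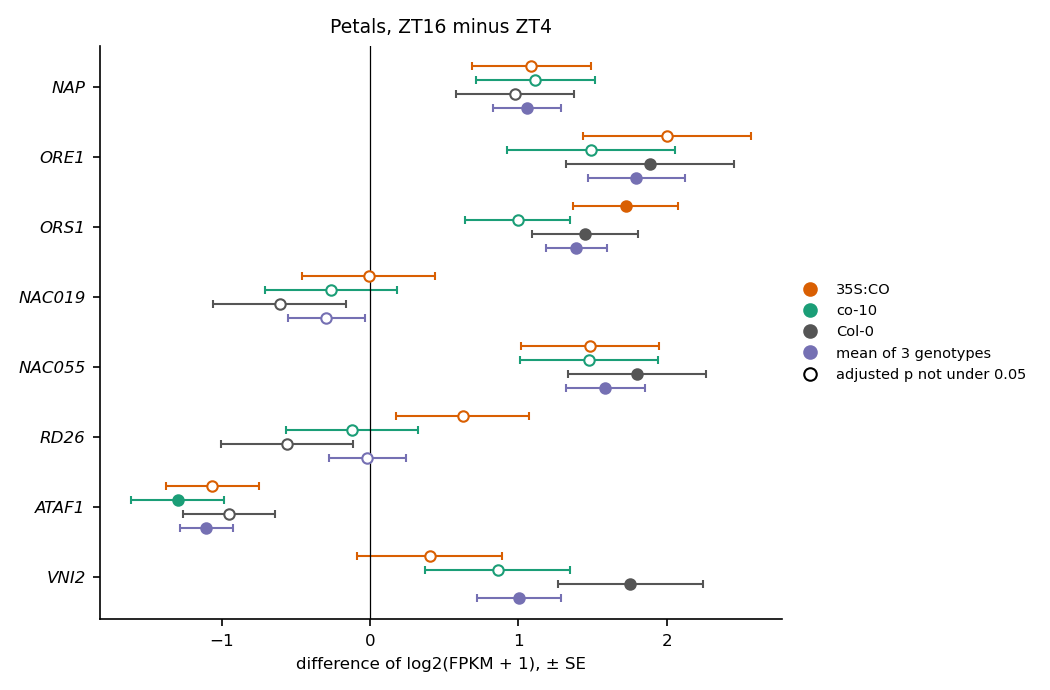
Difference between ZT16 and ZT4 petals in log2(FPKM + 1), with SE bars, for the 8 tested members in 35S:CO, co-10, Col-0 and the mean of the 3; filled points have an adjusted p under 0.05. ORE1, ORS1, NAC055, NAP and VNI2 are to the right of 0 and ATAF1 to the left in the mean of the genotypes.

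Of the 6 calls, 5 held when each of the 12 petal libraries was left out in turn, and VNI2 lost its call without 35S:CO ZT4 replicate 1, 35S:CO ZT16 replicate 1 or Col-0 ZT16 replicate 1, with an adjusted p up to 0.0577. Beside the time difference, the green tissue markers summed to 505 to 2617 FPKM at ZT16, against 2674 to 4464 FPKM at ZT4, and all 5 were lower. The pollen and anther markers summed to 695 to 3163 FPKM at ZT16, against 503 to 1641 FPKM at ZT4. Of the 2 tested, TUA1 was higher (0.70 ± 0.23) and 1 was not called. Of the 4 petal markers, 2 were lower at ZT16, SEP3 (-1.34 ± 0.18) and PI (-0.74 ± 0.21). Of the 5 carpel, ovule and seed markers tested, SPT alone was called. It was higher (2.42 ± 0.25), with 4.87 to 8.41 FPKM at ZT16, against 0 to 1.05 FPKM at ZT4. The other 4 were not called, and the list's median was 0.18, beside 0.12 for all genes. Of all genes 19.9% were higher and 13.7% lower. The part of these markers in the differences was not tested.

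Within single genotypes fewer members passed. In 35S:CO petals both ZT16 libraries were above both ZT4 libraries for NAP, ORE1, ORS1 and NAC055, 4 of 8, against 34.2% of all genes, and below them for ATAF1, 1 of 8, against 26%. The same genes and VNI2 were higher in co-10 petals, 5 of 8, against 32.5%, and in Col-0 petals, 5 of 8, against 30% of all genes, while ATAF1 was lower in each, against 16.8% in co-10 and 29.1% in Col-0. In 35S:CO petals, ORS1 alone was higher at ZT16 (1.72 ± 0.36, adjusted p = 0.0238), so 1 of 8, where 4.23% of all genes were called. In co-10 petals 1 of 8 was called, ATAF1 at -1.30 ± 0.31 (adjusted p = 0.0202), where 13.3% of all genes were called. In Col-0 petals 4 of 8 were higher, where 15.4% of all genes were called: ORE1 (1.89 ± 0.57, adjusted p = 0.0455), ORS1 (1.45 ± 0.36, 0.0196), NAC055 (1.80 ± 0.47, 0.0247) and VNI2 (1.76 ± 0.49, 0.0341). With 1 of the 4 Col-0 libraries left out, the count ran between 0 and 3. Without either 35S:CO ZT4 or either 35S:CO ZT16 library ORS1 was not called (adjusted p up to 0.210), and ATAF1 was not called without co-10 ZT16 replicate 1 or co-10 ZT4 replicate 2 (up to 0.0776). In co-10 the median difference of all genes was 0.21, or 0.03 after quantile normalization.

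The time difference itself was not shown to depend on genotype. The interaction of 35S:CO with time called 0 of 8 members by limma, and that of co-10 with time 0 of 8, with 0.0224% of all genes called in each and 0 members at an unadjusted p under 0.05. Of these 16 interactions the largest were -1.35 ± 0.69 for VNI2 (unadjusted p = 0.0763) and 1.18 ± 0.63 for RD26 (unadjusted p = 0.0877), both for 35S:CO. For ORE1 the 95% interval of the interaction was -1.65 to 1.88 in 35S:CO and -2.16 to 1.37 in co-10, so a sizeable dependence on genotype could not be detected with these replicates. The small interactions of NAP and ORE1 with 35S:CO, 0.11 each, changed sign under quantile normalization.

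Neither 35S:CO nor co-10 gave a called difference from Col-0 in petals for any member. Between 35S:CO and Col-0, 0 of 8 members were called at ZT16 (1.14% of all genes), 0 of 8 at ZT4 (0.106%) and 0 of 8 in the mean of both times (0.934%), with 0, 0 and 1 members at an unadjusted p under 0.05. The one was NAP, with 609 and 336 FPKM in ZT16 petals of 35S:CO, against 952 and 521 FPKM in Col-0 petals, and 239 and 189 FPKM at ZT4 in 35S:CO petals, against 416 and 307 FPKM in Col-0 petals. Its difference over both times was -0.69 ± 0.28 (unadjusted p = 0.0323, adjusted p = 0.447, 95% interval -1.31 to -0.07). NAP thus lay lower in both 35S:CO ZT4 libraries than in both Col-0 ones, overlapped at ZT16, and failed the correction.

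For ORE1 the difference of 35S:CO from Col-0 was -0.14 (95% interval -1.39 to 1.11) at ZT16 and -0.25 (-1.498 to 0.99) at ZT4. For VNI2 it was -0.66 (-1.74 to 0.41) at ZT16 and 0.69 (-0.39 to 1.77) at ZT4. Across the 8 members the differences ran from -0.66 to 0.60 at ZT16 and from -0.75 to 0.69 at ZT4. At ZT16 ATAF1 and VNI2, 2 of 8, were lower in both 35S:CO libraries than in both Col-0 libraries, against 22.3% of all genes. Intervals such as that of ORE1 are wide, and a missing call does not show equal levels.

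Between co-10 and Col-0, limma called 0 of 8 members at ZT16 (0.0224% of all genes), 0 of 8 at ZT4 (0.0224%) and 0 of 8 in the mean of both times (0.0392%), with 0 members at an unadjusted p under 0.05 in each. At ZT16 all 8 differences lay below 0, from -0.80 for ORE1 to -0.10 for RD26, with a median of -0.48 beside 0.08 for all genes, and the groups overlapped for each of the 8. At ZT4, NAP, NAC019 and RD26 were lower in both co-10 libraries than in both Col-0 libraries, which held for 17.9% of all genes. The same 3 genes were lower in both 35S:CO libraries than in both Col-0 libraries, which held for 23.7%. Both comparisons use the same Col-0 libraries. NAC019, for example, had 255 and 194 FPKM in 35S:CO petals and 251 and 237 FPKM in co-10 petals at ZT4, against 355 and 350.3 FPKM in Col-0 petals.

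Between 35S:CO and co-10, 0 of 8 members were called at ZT16 (0.929% of all genes) and 0 of 8 at ZT4 (0.319%), with 0 at an unadjusted p under 0.05 in each. ORS1 came nearest, at 81.3 and 75.9 FPKM in 35S:CO petals, against 34.5 and 60.3 FPKM in co-10 petals at ZT16. That difference was 0.77 ± 0.36 (unadjusted p = 0.0531, adjusted p = 0.550). Beside these genotype comparisons, the pollen and anther markers at ZT16 summed to 695 and 941 FPKM in 35S:CO petals, 1797 and 3163 FPKM in co-10 petals, and 1317 and 2141 FPKM in Col-0 petals, and the green tissue markers to 2441 and 2617, 505 and 1357, and 810 and 1093 FPKM in 35S:CO, co-10 and Col-0. Of the 5 green tissue markers limma called RCA alone between 35S:CO and Col-0 (2.69 ± 0.36, adjusted p = 0.00456), at 1478 and 1475 FPKM in 35S:CO petals, against 226 and 230.3 FPKM in Col-0 petals, and LHCB3 (-0.62) and CAB4 (-0.15) were below 0. The part of such differences between libraries was not tested.

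**Figure D3:**
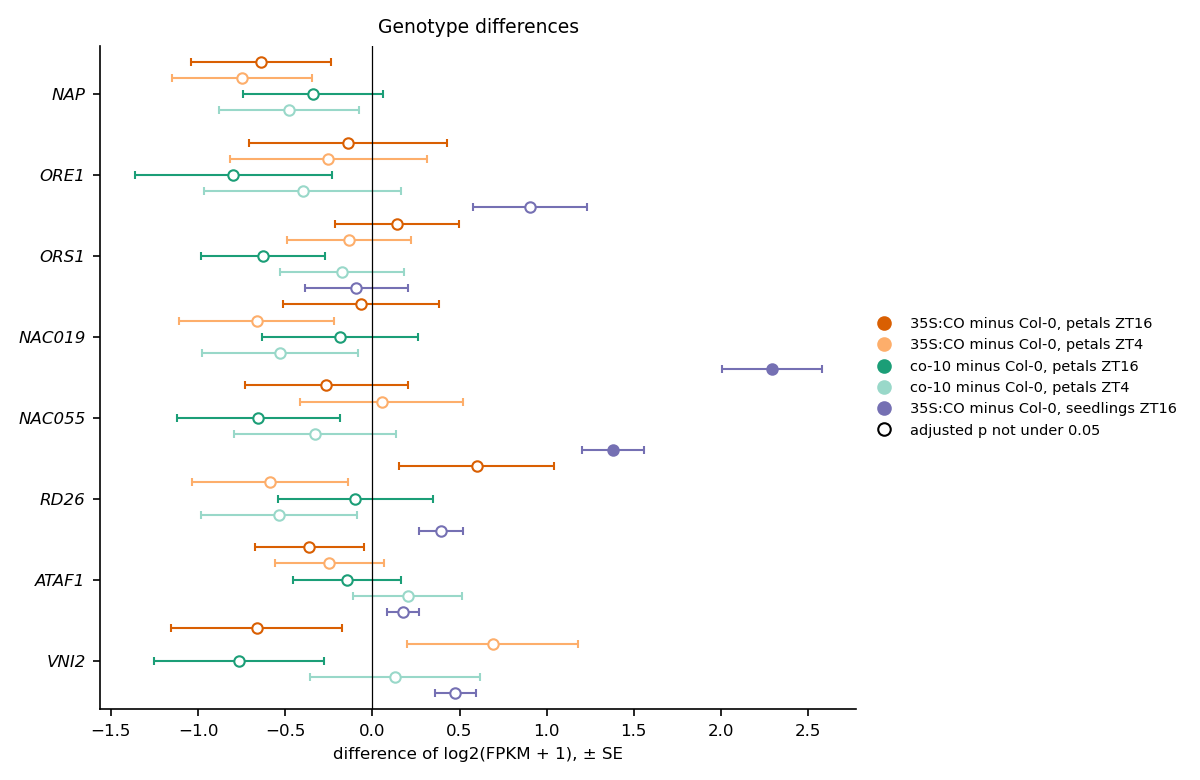
Genotype differences in log2(FPKM + 1), with SE bars, for the 8 tested members in petals at each time and for 7 of them in seedlings; filled points have an adjusted p under 0.05. Only NAC019 and NAC055 in seedlings are filled.

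In seedlings, where all members but VNI2 and ATAF1 were low, the jasmonate- and abscisic acid-responsive pair NAC019 and NAC055 was higher in 35S:CO. NAC019 had 10.06 and 5.43 FPKM in 35S:CO seedlings, against 0.905 and 0.556 FPKM in Col-0 seedlings, and rose by 2.29 ± 0.29 (limma, adjusted p = 0.0151). NAC055 had 3.06 and 2.02 FPKM in 35S:CO seedlings, against 0.306 and 0.387 FPKM in Col-0 seedlings, and rose by 1.38 ± 0.18 (adjusted p = 0.0151). These were 2 of 7 members tested, where 11.7% of all genes were called. Both genes passed the filter only through the 35S:CO libraries, so the count is a description. On a smaller added value of 0.1 FPKM the differences were 3.21 and 2.54, since 1 FPKM compresses such low levels.

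The other 5 tested members did not pass. ORE1 had 6.19 and 3.72 FPKM in 35S:CO seedlings, against 1.42 and 3.01 FPKM in Col-0 seedlings (0.90 ± 0.33, adjusted p = 0.149). VNI2 had 86.5 and 71.1 FPKM, against 54.0 and 58.3 FPKM (0.48 ± 0.12, adjusted p = 0.0685). RD26 had 5.88 and 5.25 FPKM in 35S:CO seedlings, against 3.61 and 4.39 FPKM in Col-0 seedlings (0.40 ± 0.13, adjusted p = 0.112). For all 3 both 35S:CO libraries were above both Col-0 libraries, as they were for 6 of 7 members tested, which held for 19.1% of all genes, and 0 of 7 were below, against 43.2%. The 6 include NAC019 and NAC055, which passed the filter only through the 35S:CO libraries, so this count is a description too. ATAF1 differed by 0.18 ± 0.09, and ORS1, with -0.09 ± 0.29 (0.02 after quantile normalization), was the one that overlapped. NAP, at 1.30 and 0.504 FPKM in 35S:CO seedlings, against 0.391 and 0.817 FPKM in Col-0 seedlings, was not tested.

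The calls in seedlings rest on few low values. Without either 35S:CO library, NAC019 and NAC055 were still above Col-0 but under the filter, so the count was 0. Without either Col-0 library NAC019 was not called (adjusted p = 0.0604 and 0.0852) and NAC055 was, and in a fit of all 16 libraries NAC055 was not called (adjusted p = 0.179) and NAC019 was. Beside this comparison the petal markers summed to 10.8 and 11.5 FPKM in 35S:CO seedlings, against 6.07 and 8.52 FPKM in Col-0 seedlings, and the green tissue markers to 15300 and 15740 FPKM, against 12830 and 12970 FPKM. Limma called AP3 (0.94 ± 0.12) and PI (0.98 ± 0.15), 2 of 3 petal markers tested, higher in 35S:CO seedlings, where 5.5% of all genes were higher. It also called LHCB3 (2.30 ± 0.12), CAB4 (1.98 ± 0.08) and LHCB1.1 (1.85 ± 0.23), 3 of 5 green tissue markers, and the pollen marker TUA1 (1.196 ± 0.10) higher. AP3 and PI had at most 0.142 and 0.375 FPKM in Col-0 seedlings. Both passed the filter only through the 35S:CO libraries, so their calls are descriptions. Whether these markers bear on the result was not tested.

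Whether CO overexpression acted differently in petals was tested as an interaction over all 16 libraries at ZT16. It called 0 of 8 members by limma, where 1.55% of all genes were called, with 2 at an unadjusted p under 0.05. NAC019 differed between tissues by -2.36 ± 0.62 (unadjusted p = 0.00300, adjusted p = 0.117, 95% interval -3.72 to -0.99) and NAC055 by -1.64 ± 0.62 (unadjusted p = 0.0222, adjusted p = 0.353). Without Col-0 ZT16 petal replicate 2 the count was 1. The rise of both genes in seedlings is thus not shown to differ from the petal difference after correction.

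In each ZT16 petal group, 1 of the 2 libraries was higher for all 8 members tested. In 35S:CO, replicate 1 was above replicate 2 for 8 of 8 members, by 1.07-fold for ORS1 to 1.81-fold for NAP. In co-10, replicate 2 was above replicate 1 for 8 of 8, by 1.27-fold for RD26 to 2.63-fold for ORE1. In Col-0, replicate 1 was above replicate 2 for 8 of 8, by 1.27-fold for ATAF1 to 2.83-fold for RD26. All 8 were thus higher in the same library of each pair, against 13.7% of all genes for the same 3 libraries, which were picked after their values were seen.

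**Figure D4:**
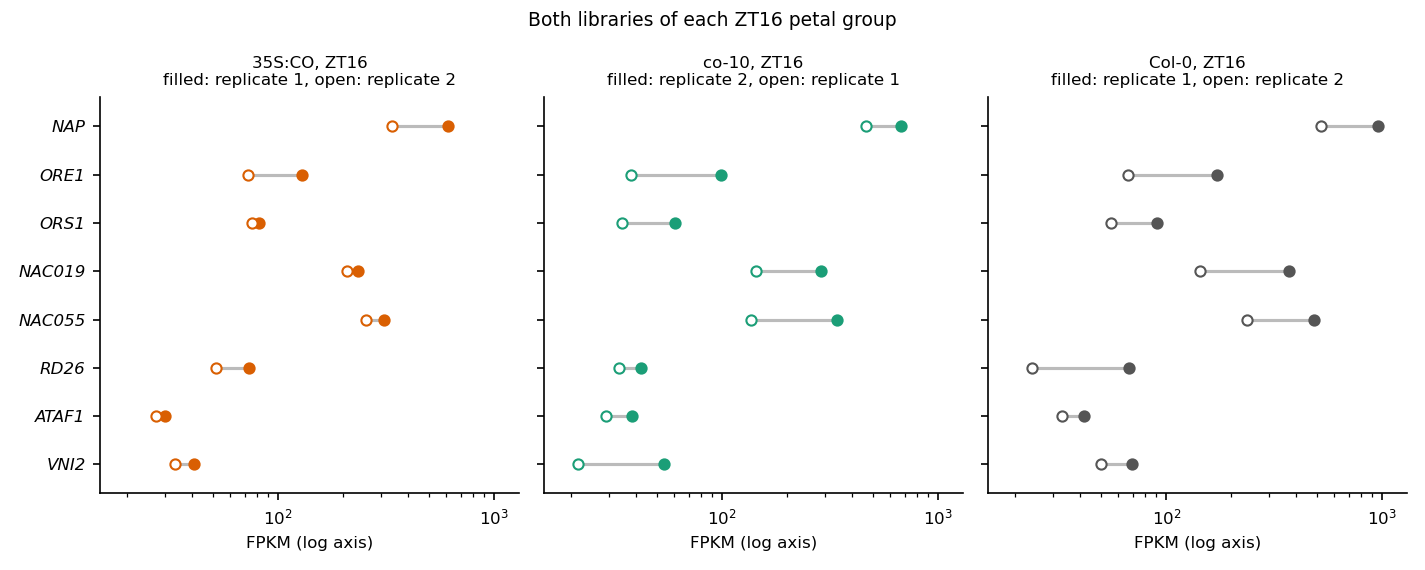
FPKM (log axis) of the 8 tested members in both libraries of the 35S:CO, co-10 and Col-0 petal groups at ZT16. The filled point, replicate 1 in 35S:CO and Col-0 and replicate 2 in co-10, is to the right of the open point for all 8 members in each group.

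The same count at ZT4 was 3 of 8 for 35S:CO replicate 1 over 2, 4 of 8 for co-10 and 5 of 8 for Col-0. After rescaling without ribosomal RNA and organelle loci, 7 of 8 members were higher in the same 3 libraries, all but ORS1, against 9.08% of genes. In those libraries ribosomal RNA held 12.0%, 3.82% and 8.37% of the summed FPKM in 35S:CO, co-10 and Col-0, against 35.2%, 11.1% and 38.8% in their partners, and the estimated depth was 17850000, 18660000 and 18080000 reads, against 17240000, 22010000 and 14250000. The depth of 17850000 is doubtful, as given above. VGD1, the pollen marker, had 778, 2833 and 1139 FPKM in those libraries, against 566, 1549 and 1838 FPKM in their partners. What sets these libraries apart was not tested.

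ORE1, ORS1 and NAC055 varied together from library to library. Over the 12 petal libraries, which share the time difference and each library's depth, Pearson's r of log2(FPKM + 1) was 0.979 between ORE1 and NAC055, 0.970 between ORE1 and ORS1 and 0.957 between ORS1 and NAC055. NAP and ORE1 gave 0.852, and ATAF1 and NAC055 gave -0.752. For deviations from the group means, which leave out time and genotype, r was 0.932, 0.922 and 0.871 for the first 3 pairs and 0.376 for ATAF1 and NAC055, and it ran between -0.178 and 0.932 over the 28 pairs, with 27 above 0. With NAP, ORE1, ORS1 and NAC055 the deviations of VNI2, which also rose with time, gave 0.210 to 0.694, and those of ATAF1, which fell, 0.376 to 0.693. NAC019, whose level did not differ detectably with time, gave 0.0797 with ORE1 over all libraries and 0.772 in the deviations. These values are descriptions of 12 libraries, and within a group the 2 deviations mirror each other. They hold the replicate differences given above, where all 8 members were higher in the same library of each ZT16 pair. The share of pairs above 0 among all genes was not computed.

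Among 15346 genes compared in this way, those closest to NAP over the 12 libraries were BRG1 (AT5G45100, r = 0.972), AT1G44770 (0.958) and AT4G27745 (0.956). BRG1, a relative of the ubiquitin ligase BOI, had 28.2 to 71.9 FPKM at ZT16, against 19.9 to 39.8 FPKM at ZT4. The closest to ORE1 were NAC055 itself (0.979), AT3G60690 (0.979), which RefSeq also names SAUR59, and AT2G32150 (0.972). AT2G32150 had 95.1 to 288 FPKM at ZT16, against 50.7 to 91.3 FPKM at ZT4.

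Known regulators of the members were followed as a list of 15 genes, of which 12 were tested in petals. In the mean of the genotypes at ZT16, 2 were higher than at ZT4 and 5 lower, where 19.9% of all genes were higher and 13.7% lower. PIF4 and PIF5, which activate ORE1 in dark-treated leaves, fell by 1.94 ± 0.26 and 3.69 ± 0.24, while ORE1 rose. PIF5 had 0.625 to 2.25 FPKM at ZT16, against 21.1 to 37.4 FPKM at ZT4. MYC4, a jasmonate response factor, fell by 1.30 ± 0.30, and NLA, a ubiquitin ligase that marks ORE1 protein for breakdown, rose by 1.24 ± 0.19. The list's median was -0.32, beside 0.12 for all genes.

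Between petals and seedlings of Col-0, 5 of 13 regulators tested were higher in petals and 2 lower, where 18.9% of all genes were called higher and 45.5% lower. The list's median was 0.33, beside -0.74 for all genes. Among those called were ABI5 (3.34 ± 0.30), an abscisic acid response factor, NLA (2.33 ± 0.29) and EIN3 (1.495 ± 0.22), the ethylene response factor that activates ORE1. MYC2, which binds the NAC019 promoter in jasmonate signalling, had 32.1 and 37.3 FPKM in ZT16 petals of 35S:CO and 32.5 and 31.7 FPKM in those of Col-0. It was called in both genotypes, but it is listed at 0 in all 4 seedling libraries, so no fold is given. In 35S:CO, 5 were higher and 3 lower, where 18.2% and 43.1% of all genes were, with a list median of 0.18, beside -0.65 for all genes. ABI5 (4.36 ± 0.30) was among those higher, with PIF4 (-2.63 ± 0.37) and PIF5 (-2.34 ± 0.36) lower. The precursor of miR164a was listed at 0 in all 12 petal libraries and those of miR164b and miR164c stood at 0 to 0.944 FPKM and 0 to 0.360 FPKM, but these mRNA libraries do not measure mature microRNA.

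In seedlings, 3 of 12 regulators tested were higher in 35S:CO and 0 lower, where 5.5% of all genes were higher and 6.22% lower. The 3 were PIF4 (1.63 ± 0.15), PIF5 (1.34 ± 0.10) and MYC4 (0.82 ± 0.09). PIF5 had 10.3 and 10.4 FPKM in 35S:CO seedlings, against 3.24 and 3.74 FPKM in Col-0 seedlings. In petals limma called 0 of 12 regulators in each genotype comparison, with at most 1 at an unadjusted p under 0.05, where at most 1.14% of all genes were called.

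Reported targets of the members, a list of 23 genes of which 21 were tested in petals, were compared with time in the same way: in the mean of the genotypes 11 were higher at ZT16 and 3 lower, where 19.9% of all genes were higher and 13.7% lower, and their median was 1.02, beside 0.12 for all genes. The list was not split by the direction in which a member acts on each target. Its counts and median thus do not measure an action of the members. ACS2, an ethylene synthesis gene bound by ORE1, rose by 3.88 ± 0.45, with 23.5 to 99.4 FPKM at ZT16, against 0 to 11.2 FPKM at ZT4. NYC1, which starts chlorophyll b breakdown, rose by 2.12 ± 0.20, with 509 to 977 FPKM at ZT16, against 125 to 210.1 FPKM at ZT4. AAO3, an abscisic acid synthesis gene activated by NAP, rose by 1.98 ± 0.23. COR15A, a cold and drought gene activated by VNI2, fell by 4.86 ± 0.24, with 1.203 to 34.3 FPKM at ZT16, against 65.0 to 396 FPKM at ZT4, while VNI2 rose.

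**Figure D5:**
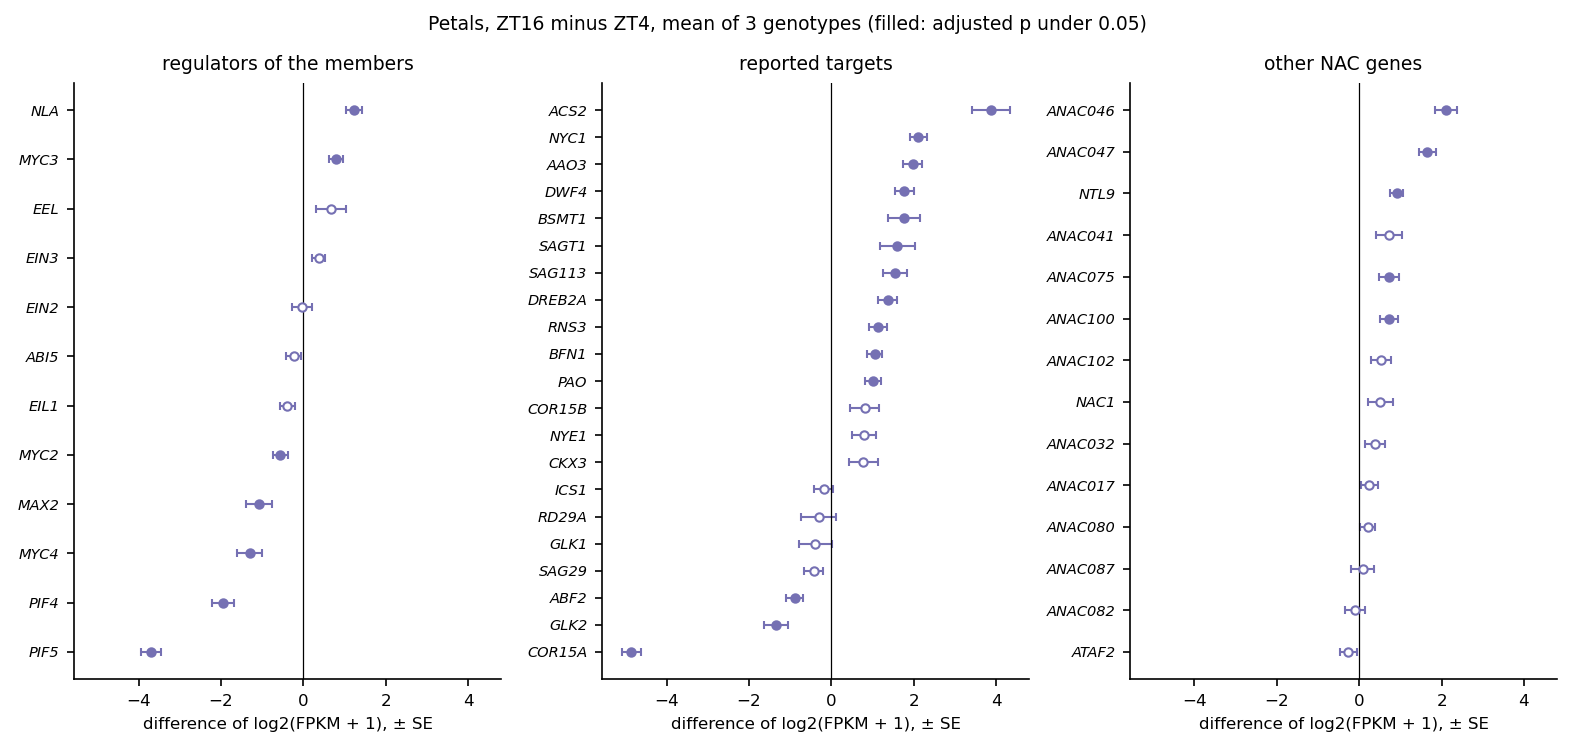
Difference between ZT16 and ZT4 petals, mean of the 3 genotypes, in log2(FPKM + 1) with SE bars, for regulators of the members, reported targets and other NAC genes; filled points have an adjusted p under 0.05. PIF5 and COR15A are farthest to the left and ACS2 farthest to the right.

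Within genotypes the target list gave 5 higher and 1 lower of 21 in 35S:CO petals, 7 and 1 in co-10 petals, and 6 and 2 in Col-0 petals. Of all genes, 3.02% were higher and 1.21% lower in 35S:CO, 8.51% and 4.79% in co-10, and 8.56% and 6.81% in Col-0. Petals of Col-0 differed from seedlings in 21 of 23 targets, 12 higher and 9 lower, where 64.5% of all genes were called, 18.9% as higher and 45.5% as lower. ACS2 (5.39 ± 0.77) and BFN1 (5.35 ± 0.24), a nuclease of senescing tissue, were among the higher ones. GLK1, which maintains chloroplasts, and COR15B were among the lower ones and are listed at 0 in both Col-0 petal libraries at ZT16, against 111 and 82.2 FPKM for GLK1 and 77.5 and 22.2 FPKM for COR15B in Col-0 seedlings. In 35S:CO 12 were higher and 8 lower, where 18.2% and 43.1% of all genes were, among them GLK1 (-5.58 ± 0.65), BFN1 (5.42 ± 0.24), NYE1 (5.27 ± 0.49) and GLK2 (-4.92 ± 0.44).

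Some targets, but no member, were called between genotypes in petals, where at most 1.14% of all genes were called in a comparison. At ZT16 COR15A (2.66 ± 0.41) and COR15B were higher in 35S:CO than in Col-0, COR15B at 12.3 and 8.14 FPKM in 35S:CO petals, against 0 and 0 in Col-0 petals, and SAG29 (2.42 ± 0.39), a sucrose transporter gene also named SWEET15, and COR15A (3.22 ± 0.41) were higher in 35S:CO than in co-10. SAG29 had 569 and 574 FPKM in 35S:CO petals, against 101 and 111 FPKM in co-10 petals. These were 2 of 21 targets in each comparison, with 7 at an unadjusted p under 0.05 for 35S:CO against Col-0 and 4 against co-10. In the mean of both times limma called 0 of 21 for 35S:CO against Col-0, with 6. Of 17876 genes tested, 1806, 1672 and 1691 were at such a p in these 3 comparisons. At ZT4 limma called 0 targets between genotypes, with 3 at an unadjusted p under 0.05 for 35S:CO against Col-0, 4 for 35S:CO against co-10 and 0 for co-10 against Col-0. At ZT16 it called 0 between co-10 and Col-0, with 1. In seedlings 4 of 21 were higher in 35S:CO and 2 lower, where 5.5% of all genes were higher and 6.22% lower. SAG29 rose by 4.61 ± 0.27, with 131 and 121 FPKM in 35S:CO seedlings, against 5.82 and 2.95 FPKM in Col-0 seedlings, and BSMT1, a methyltransferase activated by NAC019 and its relatives, rose by 2.62 ± 0.33. BSMT1 had 8.64 and 4.40 FPKM in 35S:CO seedlings, against 0.379 and 0 FPKM in Col-0 seedlings. It thus passed the filter only through the 35S:CO libraries, so its call is a description. GLK2 rose by 1.01 ± 0.08 and NYC1 fell by 1.00 ± 0.14.

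Other NAC genes, 17 in all with 14 tested in petals, gave 5 higher and 0 lower at ZT16 in the mean of the genotypes. Of all genes 19.9% were higher and 13.7% lower. The list's median was 0.53, beside 0.12 for all genes. ANAC046 (2.10 ± 0.26), a promoter of chlorophyll breakdown, and ANAC047 (1.66 ± 0.21) rose most, ahead of NTL9 (0.91 ± 0.16) and ANAC075 (0.72 ± 0.23). ANAC046 had 19.3 to 59.2 FPKM at ZT16, against 5.22 to 12.9 FPKM at ZT4. In Col-0, 8 of 14 were higher in petals than in seedlings and 1 lower, where 18.9% of all genes were higher and 45.5% lower. The higher ones were led by ANAC047 (5.46 ± 0.34), ANAC041 (3.37 ± 0.52), NAC1 (3.33 ± 0.50) and ANAC046 (3.23 ± 0.42). In 35S:CO 9 were higher, led by ANAC047 (4.68 ± 0.34), and 0 lower, where 18.2% and 43.1% of all genes were. In seedlings 3 of 14 were higher in 35S:CO, ANAC047 (1.57 ± 0.19), ANAC046 (1.21 ± 0.13) and NAC1 (0.89 ± 0.13), and ANAC032 was lower (-0.93 ± 0.14). Of all genes 5.5% were higher and 6.22% lower there. Between genotypes in petals limma called 0 of 14, with at most 1 at an unadjusted p under 0.05 in each comparison, where at most 1.14% of all genes were called.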

How the data were processed

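Stranded mRNA libraries of 16 samples were analysed. The deposited table holds FPKM per locus, 1 column per library, made by the authors. HISAT2, FastQC and the build TAIR10 are named in the submitters' processing notes, and no quantifier or annotation release is named there (not given in the sources used here). The unit was read from the values. Depth was inferred from the steps between low values at 21307 loci with 1 transcript; 26.7% to 37.3% of low values in petals and 41.7% to 46.7% in seedlings lay within 0.02 of a whole number of reads, against 4% if spread evenly. Petal depths are uncertain, and no counting interval is given.

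A gene entered a fit when at least 2 of its libraries reached 1 FPKM, and was then tested on log2(FPKM + 1) with limma 3.58.1 (trended, robust prior, statmod 1.5.0, R 4.3.3), two-sided, with Benjamini-Hochberg adjustment over all genes tested and a threshold of 0.05. The petal fit held 12 libraries, the seedling fit 4, and tissue comparisons all 16. The fit was tested on simulated data. With 2 replicates per group, each p-value sets a difference against a spread pooled over the groups of its fit and moderated across genes. That spread is the one between these samples only. The members, lists and tests were chosen with earlier results of these data known. All members are named, and of each list up to 4 called genes per comparison by size; fewer are named where counts suffice. Genes most like NAP and ORE1 are the 3 with the highest r. Of 32833 loci, 32548 were matched to TAIR10.1 by locus. Replicate numbers do not pair samples. Alternatives were other pseudocounts, no filter, other scalings, a replicate block, a prior that is not robust, 1 fit of all libraries, and each library left out.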

Additional observations from a re-analysis of the deposited data

Results flagged for a closer look

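Among all genes followed here, 4 showed a difference between groups in a limma interaction with an adjusted p under 0.05, and none is a NAC gene. COR15A, a target of VNI2, changed differently with time in 35S:CO than in Col-0 petals (interaction 4.58 ± 0.58, adjusted p = 0.0335): it had 34.3 and 18.5 FPKM in ZT16 petals of 35S:CO, against 103 and 65.0 FPKM at ZT4, and 3.66 and 2.69 FPKM at ZT16 in Col-0 petals, against 396 and 247 FPKM at ZT4. SAG29 differed by -2.79 ± 0.53 (adjusted p = 0.0252) between tissues in its response to 35S:CO, with 569 and 574 FPKM in 35S:CO petals, against 244 and 106 FPKM in Col-0 petals, and 131 and 121 FPKM in 35S:CO seedlings, against 5.82 and 2.95 FPKM in Col-0 seedlings. RCA, Rubisco activase, a green tissue marker, gave 2.36 ± 0.42 (adjusted p = 0.0190), with 1478 and 1475 FPKM in 35S:CO petals, against 226 and 230.3 FPKM in Col-0 petals, and 3568 and 3372 FPKM in 35S:CO seedlings, against 2725 and 2800.0 FPKM in Col-0 seedlings. CO itself gave 2.31 ± 0.35 (adjusted p = 0.00728), with 625 and 507 FPKM in 35S:CO petals, against 0.0376 and 0.191 FPKM in Col-0 petals, and 315 and 297 FPKM in 35S:CO seedlings, against 1.91 and 2.10 FPKM in Col-0 seedlings. Since CO is the overexpressed gene, its value describes the overexpression and the Col-0 levels and is no response to 35S:CO. All 4 were picked from the lists for their interaction.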

How the results depend on the processing

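The time difference over 3 genotypes called 6 members under every alternative that left out no library and 5 or 6 with 1 library left out, and the genotype differences in petals called 0 throughout. In Col-0 petals the count with time was 4, and 2 without a filter on low values or, an alternative added after seeing the data, without the 2 petal libraries of lowest estimated depth, and 5 in 1 fit of all 16 libraries. Quantile normalization gave 2 with time in 35S:CO and 3 in co-10 (1 each as reported), and the fit of all 16 libraries gave 2 in each. That fit called 1 member in seedlings (2 as reported). With 1 library left out, counts ran between 0 and 1 in seedlings, 0 and 3 in Col-0 over time, 0 and 0 in 35S:CO, 0 and 3 in co-10, 6 and 7 between petals and seedlings of Col-0, and 0 and 1 for the interaction of 35S:CO with tissue. Without a filter, or rescaled without ribosomal RNA and organelle loci, 8 members were called between petals and seedlings, 6 higher and 2 lower in 35S:CO and 7 higher and 1 lower in Col-0, against 6 and 7 as reported with 0 lower. The causes were not tested, except that in seedlings the count of 0 comes from genes falling under the filter. No called member changed sign, and differences that were not called changed sign in 125 of 1992 values. Replicate numbers did not pair the samples: replicate differences correlated at -0.29 to 0.22 over 15 pairs of petal groups (5 over 0.1) and at -0.01 in seedlings. With the replicate number as a block, 6 members were called over time in the mean of genotypes and 2 in seedlings, as without it, and ORE1 lost its call in Col-0 over time (adjusted p = 0.0513), also with an added 0.5 or 0.1 FPKM (0.0501 and 0.0629). JUB1 and NAC016 were under the filter in every fit as reported, also in seedlings, and the part of depth was not tested.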
